A study of Mus musculus with 10 samples.

Results

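The macrophages of the brain borders were followed through 9 of the 23462 named genes that had a probe on the array: Cd209f, Cd209b, Mrc1, Cd163, Lyve1, F13a1, Pf4, Cbr2 and Ms4a7. Every gene probe whose RefSeq accession belonged to 1 of these symbols was taken, which gave 14 probes. The list was chosen on a measured value, the lower level of Cd209f on the arrays labelled nPGC-1α, and the question was whether other genes of perivascular and meningeal macrophages were low on the same arrays. The difference of Cd209f is therefore a description and carries no test. The other 8 genes were listed for the cell type they mark, and they carry the test.

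Border macrophages lie around vessels in the perivascular space, in the meninges and in the choroid plexus, apart from the microglia inside the tissue. They are known for scavenger and lectin receptors that take up proteins and debris from the fluid around the brain, and some of them present antigen on MHC class II. A dissected hippocampus carries them along its vessels and on any pia that stays on its surface.

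Hippocampal RNA was measured on 10 one-colour arrays, 5 from PGC-1αf/f and 5 from nPGC-1α mice. PGC-1αf/f mice carried a PGC-1α transgene at Rosa26 that a floxed PGK-neo-STOP cassette kept silent, without Cre, and were the littermate controls. nPGC-1α mice carried that allele and Eno2-Cre, in which the promoter of neuron-specific enolase drives Cre in neurons, so only they had a Cre that opens the transgene. All were on the C57BL/6 background and were labelled as males of 12 weeks, in basal conditions without surgery. A level is the log2 of the background-corrected spot intensity minus the log2 of the 75th percentile of its array, so that a level of 0 equals that percentile. Each difference is that of nPGC-1α from PGC-1αf/f, so a negative one means a lower level in nPGC-1α.

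The labels were only in part borne out by the arrays. Ppargc1a, the gene of PGC-1α, spanned 2.13 to 2.34 in PGC-1αf/f and 2.06 to 2.31 in nPGC-1α (difference 0.004 ± 0.085 SE, limma adjusted p = 0.99). Whether its 2 probes match the transgene is not given in the sources used here, so they do not check the genotype, and nPGC-1α below means the arrays so labelled. The Y-linked genes Ddx3y, Kdm5d and Uty were well above background on 4 arrays (replicate 1 of PGC-1αf/f, with replicates 1, 3 and 5 of nPGC-1α) and on none of the other 6, although all mice were labelled male. Eif2s3y, also Y-linked, was at 1.18 to 1.43 on those 4 arrays and at -8.86 to -6.16 on the other 6, of which 1 was still marked well above background. The labels give the cell type as neuron, but all 11 microglia genes, all 10 endothelial genes and all 14 meningeal fibroblast genes of the marker lists were well above background on all 10 arrays, as were all 8 hippocampal neuron genes. The share of gene spots well above background was 74.48% to 81.51% in PGC-1αf/f and 67.24% to 73.44% in nPGC-1α. Slide 1 held replicates 1 to 4 of each genotype, with the controls in row 1 and the nPGC-1α arrays in row 2, so row and genotype cannot be told apart there. Slide 2 held both replicates numbered 5, in the same row.

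Cd209f belongs to the mouse family of SIGN-R lectins on chromosome 8, and its promoter is shown because it is close to a copy of that of another family member. RefSeq held promoter windows for 8 of the 9 genes and was read for the 250 bases before each start (build GRCm38.p6). The Cd209f window lies on the minus strand at chr8:4105765-4106014, and the Cd209g window lies on the plus strand at chr8:4134486-4134735, with 28471 bases between them. Both are written 5′ to 3′ on the strand of the gene. The capitals mark their longest shared run, 154 bases without a mismatch.
Cd209f: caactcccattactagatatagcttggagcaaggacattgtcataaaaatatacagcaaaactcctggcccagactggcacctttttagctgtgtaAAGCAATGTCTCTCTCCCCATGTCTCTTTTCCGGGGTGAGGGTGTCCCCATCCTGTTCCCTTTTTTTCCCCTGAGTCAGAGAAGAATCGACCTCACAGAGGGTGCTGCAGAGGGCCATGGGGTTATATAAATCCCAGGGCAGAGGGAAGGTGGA
Cd209g: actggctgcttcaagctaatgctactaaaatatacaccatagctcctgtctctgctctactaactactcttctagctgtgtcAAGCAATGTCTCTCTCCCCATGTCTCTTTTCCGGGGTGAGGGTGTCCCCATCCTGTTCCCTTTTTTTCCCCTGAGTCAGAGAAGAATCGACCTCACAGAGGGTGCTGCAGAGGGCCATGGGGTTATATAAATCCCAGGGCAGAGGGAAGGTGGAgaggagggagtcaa
Among all 78 pairs of the 13 member and Cd209 family genes with a window, the longest run of any other pair was 12 bases. The likeness of these promoters says nothing of the transcripts that the probes read, and hybridisation of a Cd209f transcript to the probe of a relative, or the reverse, was not tested.

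The promoter of Mrc1 is shown as the counterpart from a gene of the same cells. It lies on the plus strand at chr2:14229164-14229413, and the capitals mark the letters GAGGAA, a core to which ETS factors such as PU.1 of myeloid cells bind, read on both strands.
Mrc1: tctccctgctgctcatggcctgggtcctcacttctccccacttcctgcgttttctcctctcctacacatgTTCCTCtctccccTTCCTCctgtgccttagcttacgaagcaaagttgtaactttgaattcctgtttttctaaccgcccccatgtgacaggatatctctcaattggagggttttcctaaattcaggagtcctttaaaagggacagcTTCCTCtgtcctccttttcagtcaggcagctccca
These letters occur 3 times in the Mrc1 window and in no place of the Cd209f window. They were found for 4 of the 8 genes with a window, and 23.3% of the 32851 promoter windows of this length in the RefSeq table hold them. The first is a count of genes, of which F13a1 and Ms4a7 have 2 windows each, and the second a share of windows. They are not a like measure. A match is a description of the sequence and not of binding.

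Cd209f was lower on every nPGC-1α array than on any PGC-1αf/f array. Cd209f encodes a C-type lectin and is known as a transcript of border macrophages. Its levels on PGC-1αf/f replicates 1 to 5 were -2.47, -2.005, -2.67, -2.79 and -2.96. On nPGC-1α replicates 1 to 5 they were -3.88, -3.59, -4.14, -4.07 and -3.79. The groups did not overlap, and the gap ran from -2.96, the lowest PGC-1αf/f array, to -3.59, the highest nPGC-1α array. The mean was -2.58 ± 0.37 (SD, n = 5) against -3.89 ± 0.22 (SD, n = 5), a difference of -1.32 on the log2 scale (SE 0.18, 95% interval -1.71 to -0.93), which is 40.2% of the PGC-1αf/f level. Of 34000 probes with a value on all 10 arrays, 2.03% had every nPGC-1α array below every PGC-1αf/f array. That share is given for scale, since the same contrast put Cd209f on the list. In whole tissue, fewer cells of a type and less RNA per cell cannot be told apart.

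The levels by slide and by Y-linked signal are given as a description, since groups that do not overlap over all arrays cannot overlap in any part of them. On slide 2 the single PGC-1αf/f array stood at -2.96 and the single nPGC-1α array at -3.79. Among the 4 arrays with Y-linked signal the levels were -2.47 on the PGC-1αf/f array and -3.88, -4.14 and -3.79 on the nPGC-1α arrays. Among the 6 arrays without it they were -2.005 to -2.96 in PGC-1αf/f and -3.59 and -4.07 in nPGC-1α. Cd209f was read by 1 probe, so no other probe of the gene can be set beside it.

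**Figure D1:**
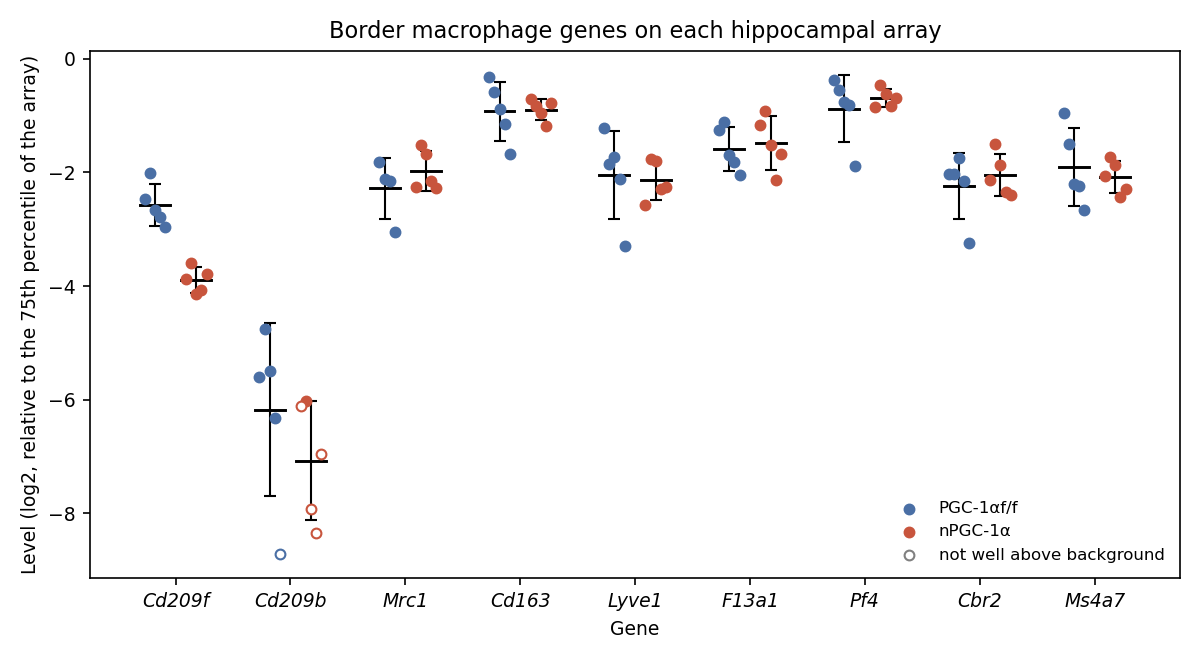
Level of each gene on each array (log2, relative to the 75th percentile of the array), with 1 point per array and the group mean ± SD in black; Cd209b is shown by its brighter probe and Mrc1 lacks PGC-1αf/f replicate 1, whose spot was an outlier. Cd209f is the gene whose groups do not overlap, and open points are spots not well above background.

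None of the other border macrophage genes that could be tested passed the test, which held no covariate. Of their 13 probes, 9 probes of 7 genes passed the filter on dim spots, each of them well above background on all 10 arrays. By limma 0 of these 9 probes were lower and 0 were higher at an unadjusted p of 0.05, and 0 at an adjusted p of 0.05. The exact Mann-Whitney test gave 0 in each direction too. Over all 39142 probes tested, 8.52% were lower and 3.39% higher at the unadjusted level, and 0.00255% (1 probe) passed the adjusted one. With quantile normalisation the same counts were 1125 lower and 1585 higher in place of 3334 and 1328, and with normexp correction they were 2812 and 1760. In a fit of only the 34491 probes well above background on all 10 arrays, 6.57% were lower and 3.93% higher. The difference was below 0 for 2 of the 7 genes and above 0 for 5, with a median of 0.11 on the log2 scale against -0.025 over all 17597 named genes tested. This direction rested on PGC-1αf/f replicate 5, without which 6 of the 7 differences were below 0 and 1 above, with a median of -0.068. Unadjusted p ran from 0.249 to 0.89 and adjusted p from 0.65 to 0.965. The lowest bound of the 9 intervals of 95% was -0.82. None of the 9 probes had every nPGC-1α array below every PGC-1αf/f array. Of the 34000 probes with 10 values 2.03% did, so 0 of 9 is near that share.

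**Figure D2:**
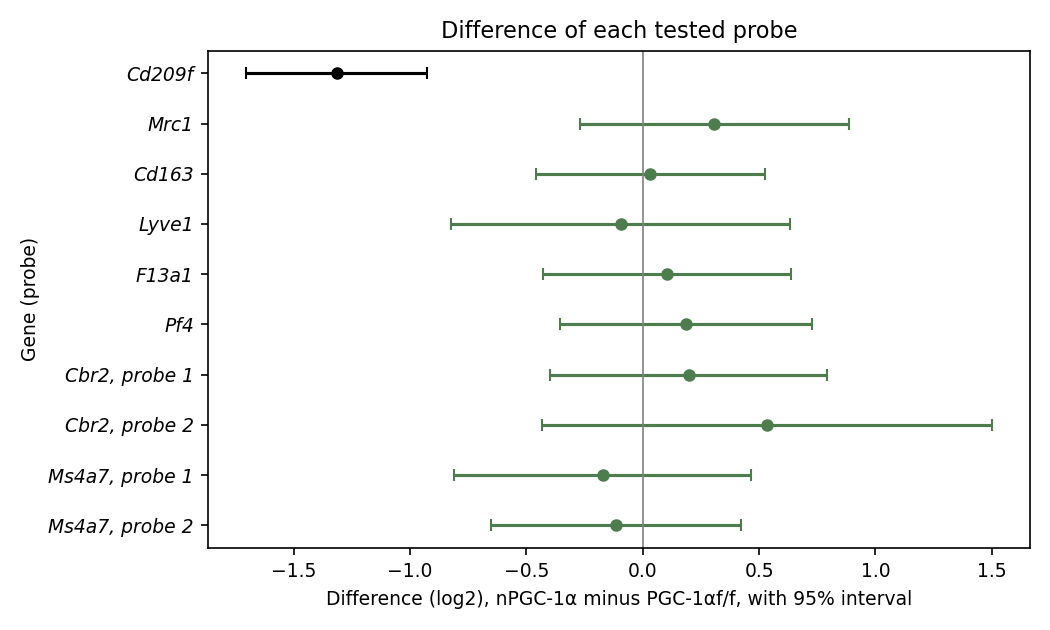
Difference of each tested probe (log2, nPGC-1α minus PGC-1αf/f) with its 95% interval. The intervals of the 9 other probes all include 0, and the Cd209f interval is descriptive.

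Among the scavenger and endocytic receptors, Mrc1 (the mannose receptor CD206) stood at -1.81, -2.11, -2.14 and -3.06 on PGC-1αf/f replicates 2 to 5. On nPGC-1α replicates 1 to 5 it stood at -2.26, -1.51, -1.68, -2.14 and -2.27. The nPGC-1α values lay inside the PGC-1αf/f range except for replicates 2 and 3, which were above it. The spot of PGC-1αf/f replicate 1 was marked as an outlier and left out, and stood at -1.29. The difference was 0.31 (SE 0.26, 95% interval -0.27 to 0.89, limma adjusted p = 0.661), or 0.11 with outlier spots kept and 0.049 without replicate 5 of the controls.

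Cd163, the receptor for haemoglobin bound to haptoglobin, read -0.32, -0.59, -0.88, -1.16 and -1.68 in PGC-1αf/f. Its values in nPGC-1α were -0.71, -0.83, -0.96, -1.19 and -0.79, all within the range of the controls. The means differed by 0.03 (SE 0.22, 95% interval -0.46 to 0.52, limma adjusted p = 0.965). A second Cd163 probe was not well above background on any array and was not tested.

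Lyve1, a hyaluronan receptor of border macrophages and of lymphatic endothelium, read -1.22, -1.86, -1.73, -2.11 and -3.30 in PGC-1αf/f. In nPGC-1α it read -2.57, -1.77, -1.80, -2.29 and -2.25, again within the control range. The low end of that range was set by PGC-1αf/f replicate 5 alone. Replicates 1, 4 and 5 of nPGC-1α lay below all the remaining controls, and without that control array the difference was -0.41. The difference was -0.095 (SE 0.33, 95% interval -0.82 to 0.63, limma adjusted p = 0.926).

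F13a1, the A subunit of coagulation factor XIII, and Pf4, the chemokine platelet factor 4 (CXCL4), are secreted proteins that border macrophages share with platelets. F13a1 spanned -2.05 to -1.12 in PGC-1αf/f and -2.14 to -0.92 in nPGC-1α, and the difference of 0.11 (SE 0.24, 95% interval -0.43 to 0.64) had an adjusted p of 0.883 by limma. Pf4 spanned -1.89 to -0.37 and -0.85 to -0.46, and its difference of 0.19 (SE 0.25, 95% interval -0.35 to 0.73) had an adjusted p of 0.783. In the controls Pf4 stood at -1.89 on replicate 5 and at -0.81 to -0.37 on the other 4. A second F13a1 probe was not well above background on any array.

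Cbr2, a carbonyl reductase, and Ms4a7, a membrane protein of the MS4A family, were each read by a pair of tested probes. The brighter Cbr2 probe spanned -3.24 to -1.75 in PGC-1αf/f and -2.39 to -1.504 in nPGC-1α, a difference of 0.20 (SE 0.27, 95% interval -0.40 to 0.79, limma adjusted p = 0.791). The dimmer one gave 0.54 (SE 0.44, 95% interval -0.43 to 1.503, adjusted p = 0.65). The brighter Ms4a7 probe spanned -2.66 to -0.95 and -2.43 to -1.74, a difference of -0.17 (SE 0.29, 95% interval -0.81 to 0.47, limma adjusted p = 0.834). The dimmer one gave -0.11 (SE 0.24, adjusted p = 0.873). Both probes of each gene gave the same sign.

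Cd209b, the SIGN-R1 lectin of marginal zone and border macrophages, was too dim for the test. Its brighter probe passed background on 4 controls and 1 nPGC-1α array. It read -5.60, -4.76, -5.49, -6.32 and -8.71 in PGC-1αf/f and -6.11, -6.03, -7.92, -8.35 and -6.97 in nPGC-1α. The groups overlapped, and PGC-1αf/f replicate 5 was the lowest array of all. The second probe passed background on 3 controls and on 0 nPGC-1α arrays. Its means were -7.47 ± 1.29 (SD, n = 5) and -7.94 ± 1.05 (SD, n = 5). The lowest level well above background was -7.51 to -6.56 on PGC-1αf/f arrays and -6.62 to -5.75 on nPGC-1α arrays. For the brighter probe -6.32 passed on a control and -6.11 did not on an nPGC-1α array. The counts that passed are thus not a like measure in the groups.

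No probe of these genes was called with any single array left out. The 4 arrays whose Y-linked signal met the label, a set chosen after the data were seen, held 1 control, PGC-1αf/f replicate 1, on which the 7 genes averaged 0.60 above their group mean. The differences in this set are values that rest on that array. Lyve1 was at -0.99, the pair of Ms4a7 probes at -1.13 and -0.96, and Cd209f at -1.47. Among the 6 arrays without Y-linked signal Lyve1 stood at 0.22 and Ms4a7 at 0.064. That set holds PGC-1αf/f replicate 5, which was low in Xist too and was the lowest control for all 7 genes.

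The tested genes other than Cd209f varied together from array to array inside the groups. Deviations from the group mean correlated over the 10 arrays with a median Pearson r of 0.81 (0.54 to 0.96) over 21 pairs, and with a median Spearman rho of 0.78. PGC-1αf/f replicate 5 was the lowest array of its group for all 7 genes, by 0.89 below the group mean on average. Without that array the median r was 0.66 (0.12 to 0.92). The arrays are shared by all pairs, and these correlations are descriptions with no test.

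The deviations of Cd209f correlated with those of the 7 genes at a median r of 0.65 (0.49 to 0.78) and a median rho of 0.66, or at a median r of 0.51 (0.15 to 0.73) without PGC-1αf/f replicate 5. Taken over the 7 others in the same way, Cbr2 and F13a1 had a like median r (both 0.66), and Pf4 had the highest (0.86). The mean level of the 7 genes was -1.67 ± 0.56 (SD, n = 5) and -1.62 ± 0.26 (SD, n = 5). On PGC-1αf/f replicate 5, where the 7 genes were lowest, Cd209f stood at -2.96.

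**Figure D3:**
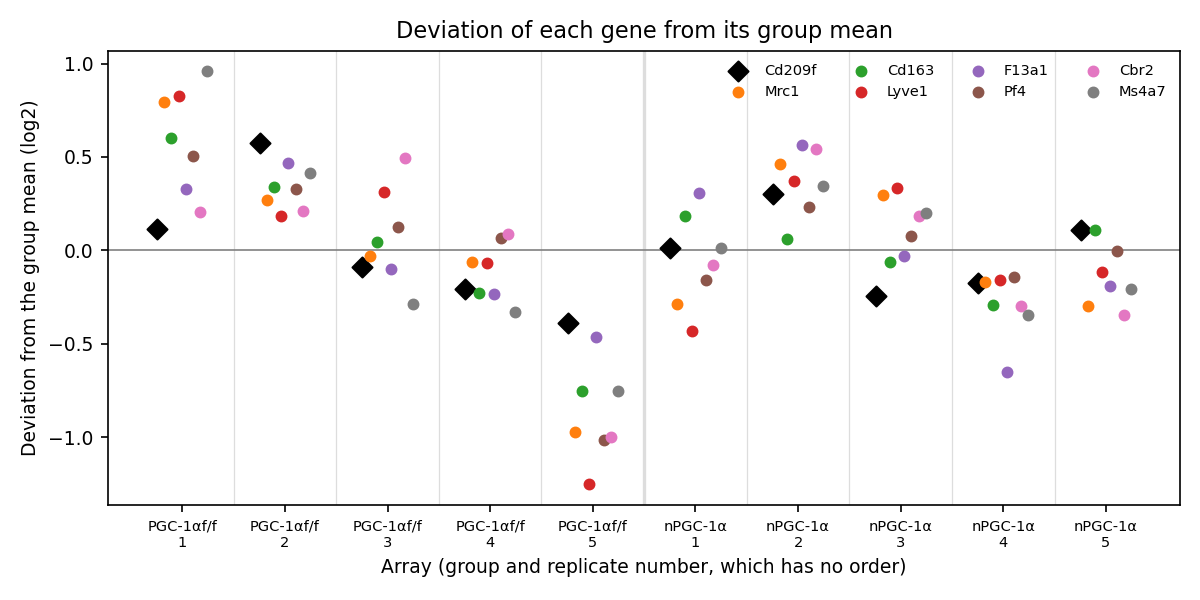
Deviation of each tested gene from the mean of its group (log2) on each of the 10 arrays, with Cd209f as black diamonds and outlier spots kept so that each gene has a value on each array. On PGC-1αf/f replicate 5 all genes lie below 0, on average by 0.89 for the 7 genes other than Cd209f and by 0.39 for Cd209f.

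The genes ranked by likeness were well above background on all 10 arrays and had no outlier spot, whereas the outlier spot of Mrc1 was kept. Among 13585 such named genes, the deviations most like those of Mrc1 over the 10 arrays were those of Nfatc4 (r = 0.967), Cxcl16 (0.967), Clec4a3 (0.965), Tm4sf1 (0.965) and H2-Q1 (0.963). Lyve1 ranked 9 (r = 0.956), Pf4 ranked 42, Ms4a7 56, Cbr2 349, Cd163 506, F13a1 1309 and Cd209f 2131 (r = 0.554). Those most like Cd209f, among 13584, were Pgm5 (r = 0.954), Gm3325 (0.945), Ebf1 (0.926), Oip5 (0.921) and Fam199x (0.919), none of which is on the border macrophage list. Of the list, F13a1 ranked 157 for Cd209f (r = 0.782), Cd163 315 (0.728), Ms4a7 733, Pf4 746, Cbr2 1902 and Lyve1 2122. Mrc1, which had an outlier spot, was not among the genes ranked.

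In the Cd209 family, whose lectins are encoded side by side and share sequence, the differences were unequal. Cd209g, the copy with the like promoter, was lower by limma at the unadjusted level of 0.05 but not after adjustment (adjusted p = 0.268). Its difference was -0.27 (SE 0.087), with -3.08 to -2.75 in PGC-1αf/f and -3.30 to -3.07 in nPGC-1α. A second Cd209g probe gave -0.12 (SE 0.11, adjusted p = 0.692). Cd209a, also a dendritic cell gene, gave -1.34 (SE 0.76, adjusted p = 0.512) and passed background on all 5 control arrays but on only 2 of those labelled nPGC-1α. It thus entered the test through the controls, and 3 of its values in nPGC-1α were not well above background. With each array left out in turn its difference was -1.88 to -0.87 and passed the unadjusted level in 2 of 10 cases, and it was -0.53 with normexp correction and -0.62 with dim values raised to a common floor. A second Cd209a probe gave -0.79 (SE 0.47, limma adjusted p = 0.536). Cd209d stood at -0.057 (SE 0.098, adjusted p = 0.838), and Cd209c and Cd209e were well above background on no array. Of the family genes tested beside Cd209f, 1 of 3 was thus lower at the unadjusted level and 0 were higher, where 5.03% of the named genes were lower and 3.18% higher.

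The 20 tested genes nearest to Cd209f on the chromosome, 10 on each side in RefSeq order, were examined after the values had been seen. Of these, 2 were lower at the unadjusted level, Cd209g and Rprl3 (-0.36, SE 0.14), and 0 were higher, where 5.03% and 3.18% of all named genes were. Their median difference was -0.084.

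Further genes of border macrophages, 28 in number, were counted in the same way and set beside the shares of all named genes. Of 24 tested, 2 were lower at an unadjusted p of 0.05 by limma, 1 was higher and 0 passed adjustment, with a median of -0.011, beside 5.03% lower and 3.18% higher over all named genes. The lower ones were Colec12, a scavenger collectin (-0.25, adjusted p = 0.37), and Siglec1, the sialic acid receptor sialoadhesin (-0.35, adjusted p = 0.368), and the higher one was Cd38, an NAD-consuming ectoenzyme (0.31, adjusted p = 0.407). Colec12 had a mean level of 3.23 in PGC-1αf/f, where Mrc1 had -2.28 and Cd163 -0.93. It was the brightest gene of this list and weighs most in the summed level. Which cells gave its signal was not tested. Siglec1 passed background on all 5 controls and on 4 nPGC-1α arrays, so it entered the test through the controls. Folr2, the folate receptor of resident macrophages, stood at 0.068 (SE 0.34, adjusted p = 0.949), and Stab1, a scavenger receptor, at -0.069 (SE 0.13, adjusted p = 0.853). Clec10a, a galactose-binding lectin, stood at 0.15 (SE 0.44, adjusted p = 0.911).

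Antigen presentation and general macrophage genes were counted beside the 5.03% lower and 3.18% higher of all named genes. At those shares a list this short can give 0 calls. Of 7 MHC class II genes 0 passed at the unadjusted level in either direction, with a median of -0.14 (H2-Aa 0.13, adjusted p = 0.956, and H2-Ab1 -0.14, adjusted p = 0.928). Of 18 genes shared by macrophages and microglia 0 passed, with a median of -0.035. Csf1r, the receptor on which these cells depend, stood at -0.14 (SE 0.076, adjusted p = 0.487), and Aif1 (Iba1) at -0.30 (SE 0.17, adjusted p = 0.511). Cd68, a lysosomal protein, stood at 0.19 (SE 0.10, adjusted p = 0.496). A second probe of Adgre1, the F4/80 antigen, passed the unadjusted level at -0.74 (adjusted p = 0.289), whereas the brighter probe gave -0.024 (adjusted p = 0.964).

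Among the genes for signals and regulators of macrophages, the growth factors Csf1 (-0.15, adjusted p = 0.526) and Il34 (0.034, adjusted p = 0.905), both ligands of Csf1r, did not pass. Of 9 tested microglia genes 2 were lower, Tmem119 (-0.21, adjusted p = 0.407) and Gpr34 (-0.28, adjusted p = 0.394), and 0 were higher, beside the same 5.03% and 3.18% of all named genes. The summed level of the microglia genes was 14.7 to 17.3 in PGC-1αf/f and 12.1 to 15.7 in nPGC-1α, in units of the 75th percentile signal. Its part in the result for Cd209f was not tested.

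Markers of the tissue around these macrophages had overlapping summed levels in the 2 groups. The meningeal fibroblast genes gave 0 calls of 14 at the unadjusted level (median 0.14), beside 5.03% lower and 3.18% higher over all named genes. Their summed level was 12.4 to 31.0 in PGC-1αf/f and 20.3 to 27.8 in nPGC-1α. The lowest value, 12.4, was again PGC-1αf/f replicate 5, on which 13 of the 14 fibroblast genes were lowest of their group, against 27% of all named genes. The other 4 controls lay between 23.6 and 31.0. The part of meningeal tissue in the low border macrophage genes of that array was not tested.

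The choroid plexus genes gave 0 calls of 11 (median -0.049), with summed levels of 8.97 to 25.2 and 9.0 to 33.2. The endothelial genes gave 1 higher of 10, Kdr (0.42, adjusted p = 0.343), and the genes of pericytes and smooth muscle 2 higher of 9, Kcnj8 (0.22, adjusted p = 0.418) and Abcc9 (0.34, adjusted p = 0.37). The lymphatic endothelium list, which includes the member Lyve1, gave 0 of 3, and its Prox1 is also on the hippocampal neuron list. The platelet list, which includes the members Pf4 and F13a1, gave 0 of 5. The erythroid list gave 0 of 5 with summed levels of 1.68 to 8.46 and 1.63 to 8.59, and the dendritic cell list 0 of 5. Genes of monocytes and neutrophils gave 1 higher of 8, Ngp, a neutrophil granule protein (1.87, SE 0.68, adjusted p = 0.316), with a median of 0.91 and summed levels of 7.24 to 22.8 and 9.99 to 23.2. Of 8 hippocampal neuron genes 1 was lower, Calb1, the calcium buffer calbindin (-0.27, adjusted p = 0.29). These counts stand beside 5.03% lower and 3.18% higher over all named genes.

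Each gene of these lists was judged by its brightest tested probe, and none of the 11 calls reported here survived adjustment over all probes (limma adjusted p 0.268 to 0.418). When each array was left out in turn, 3 of them stayed below 0.05 every time (Cd209g, Ngp and Calb1), and the other 8 were lost without at least 1 array. Of the 3, Cd209g (-0.19) and Calb1 (-0.23) lost the call with quantile normalisation, and both lost it on the arrays without Y-linked signal (-0.29 and -0.21). Ngp lost it with the class of Y-linked signal as a covariate (1.30) and without the arrays highest in choroid plexus genes (1.22). On the arrays with Y-linked signal, which held 1 control, Ngp stood at 0.59 and Cd209g at -0.26. Second probes of Calb1 (-0.21, limma adjusted p = 0.562) and Gpr34 (-0.20, limma adjusted p = 0.604) had the same sign but did not pass the unadjusted level.

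**Figure D4:**
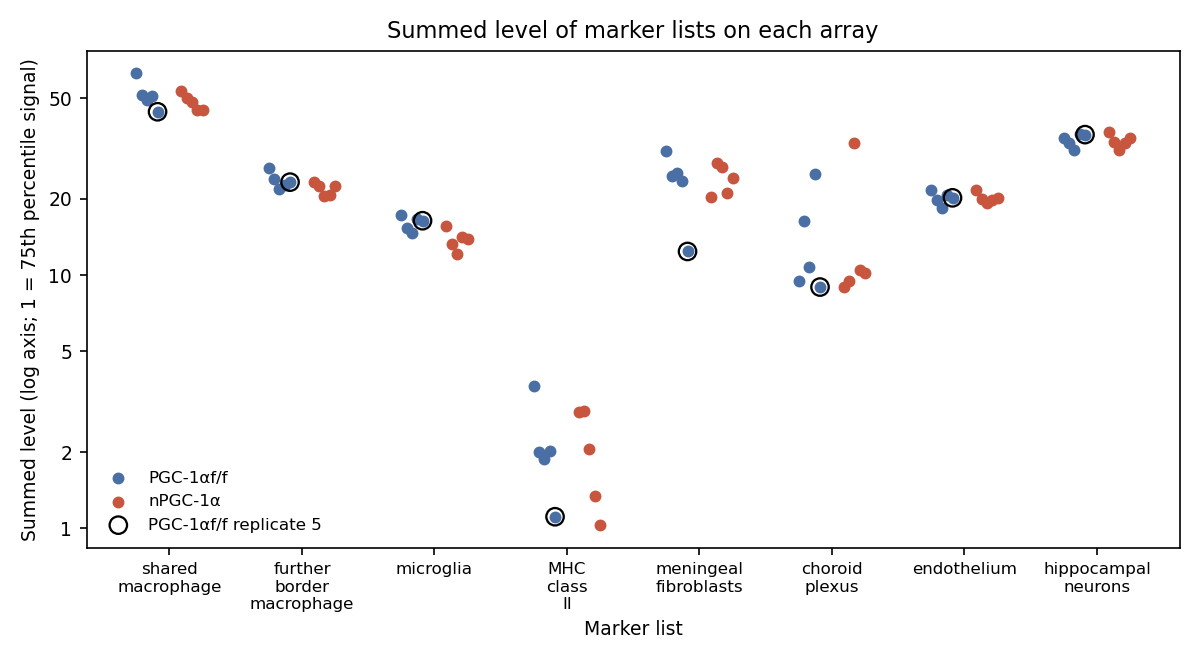
Summed level of each marker list on each array (sum of linear levels on a log axis, where 1 is the 75th percentile signal), with PGC-1αf/f replicate 5 ringed. The meningeal fibroblast sum is 12.4 on that array, and the other 4 controls lie at 23.6 to 31.0.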

How the data were processed

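Total RNA from the hippocampus was hybridised to one-colour (Cy3) Agilent mouse arrays, 5 per genotype, and the sample titles gave the group and the replicate number. The headers name Feature Extraction 11.5.1.1 as the software, not the version of the methods. The deposited scanner output holds a processed intensity per spot, which is background-subtracted and not scaled between arrays. The authors also deposited their own log2 expression table (GeneSpring), which served as an alternative. The authors state no covariate for the arrays.

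Control spots and outlier spots were left out, spots of a probe were averaged on the log2 scale, and the log2 of the 75th percentile was subtracted per array. A probe was kept if 1 of the groups had it well above background on each of its 5 arrays and both had at least 3 values (39142 probes). Symbols came from RefSeq (GRCm38.p6). The tested probe with the highest mean stood for a gene. The fit used limma 3.58.1 (lmFit, then eBayes, two-sided) under R 4.3.3, with Benjamini-Hochberg adjustment over all probes, and the script was tested on simulated data. P-values measure the spread between these arrays, since the labels do not say that they came from separate mice, and their number limits the precision. Python 3.11.15, pandas 2.3.3 and SciPy 1.17.1 were used.

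A gene of the list of signals and regulators is not reported here. The members and lists were chosen with earlier results of these data known. The text names the 9 members with every probe, list genes with an unadjusted p below 0.05 or among the first 3 of their list where described, and the 5 genes whose deviations were most like those of Cd209f and of Mrc1. Alternatives were other scalings, background corrections, filters and variance models, the authors' values, slide or replicate number as a block, classes of Y-linked signal, an exact Mann-Whitney test, and leaving out arrays.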

Additional observations from a re-analysis of the deposited data

Results flagged for a closer look

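In 52 sets of 5 arrays (each gene and each marker list within a genotype), 3 had an array whose gap to the nearest other array took up an unusually large part of the range, where chance gives about 1 in 20. PGC-1αf/f replicate 5 had a Pf4 level of -1.89, where the remaining controls had -0.81 to -0.37. Its Cbr2 level was -3.24, where the remaining controls had -2.16 to -1.75. The summed level of the choroid plexus genes was 33.2 for nPGC-1α replicate 3, against 9.0 to 10.5 for the rest of its group, in units of the 75th percentile signal.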

How the results depend on the processing

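Cd209f was lower in nPGC-1α under all 26 alternatives, between -1.47 and -1.10 on the log2 scale. This sign is a description, since the same contrast chose Cd209f. Groups that do not overlap keep their sign when arrays are left out, so those alternatives could not have changed it. The other genes gave 188 values under the alternatives, of which 165 kept their sign and stayed above an unadjusted p of 0.05, 20 changed sign and 3 passed. Leaving out each array in turn gave 0.049 to 0.46 for Mrc1, -0.41 to 0.11 for Lyve1, -0.36 to 0.068 for Ms4a7, -0.16 to 0.18 for Cd163, -0.036 to 0.27 for F13a1, -0.068 to 0.31 for Pf4 and -0.053 to 0.32 for Cbr2. Cd163, F13a1, Pf4 and Cbr2 changed sign without PGC-1αf/f replicate 5, and Cbr2 was then at -0.053. Cd163 was at -0.14 with the class of Y-linked signal as a covariate, at -0.18 on slide 1 alone and at -0.011 without the arrays highest in choroid plexus genes, and Pf4 was at -0.067 on slide 1 alone. On the 6 arrays without Y-linked signal, which include PGC-1αf/f replicate 5, Lyve1 was at 0.22 and Ms4a7 at 0.064. On the 4 arrays with it, an alternative chosen after seeing the data, Cd163 was at -0.50, F13a1 at -0.20, Pf4 at -0.35 and Cbr2 at -0.09, and the count of probes called lower was 3, with 1 control array. With no filter on dim probes the count called lower was 1 and the count called higher was 1, both from second probes (Cd163 and F13a1) that were below background on all arrays. Under quantile normalisation the median of all probes was 0.029 in place of -0.043. Same-numbered arrays shared a slide and, on slide 1, a column, but their deviations did not all correlate above 0.1 (0.215, 0.078, 0.113, 0.18 and 0.356, and 3 of 5 were closest to their own number), so the numbers were not taken as pairs. With the replicate number as a block the count called higher was 1, Mrc1 at 0.38, past the unadjusted level. The count was not computed for the mean of the probes of a gene. Cd209b was too near background to be tested at this signal.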
